A study of Mus musculus with 16 samples.

Results

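The acute-phase proteins examined here are 10 secreted proteins grouped as acute-phase proteins made in fat: Saa1, Saa2, Saa3, Saa4, Orm1, Orm2, Lcn2, Hp, Lbp and Wfdc21. In these libraries Saa1, Saa2 and Saa4 were near 0, at most 0.469 FPKM. The members were chosen by gene symbol, 10 of the 46386 entries of the expression table, and each symbol had 1 entry. RNA was sequenced from 16 libraries of mouse fat, 4 each of thigh adipose tissue (tAT), brown adipose tissue (BAT), epididymal white fat (eWAT, a visceral depot) and inguinal white fat (iWAT, a depot under the skin). The donors of every library were obese males of the strain given as C57BL66/J, fed a high-fat diet, and no lean group was compared. Whether libraries of the same depot stem from different animals is not stated, so each p-value reflects the scatter among libraries, which may be technical.

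The acute-phase response is the change in plasma proteins that follows infection or injury. Interleukin-1, interleukin-6 and tumour necrosis factor switch it on through NF-kB, STAT3 and the C/EBP factors, mainly in the liver, and many of the same genes are also read in adipocytes and macrophages of obese fat. The serum amyloid A proteins ride on high-density lipoprotein, the orosomucoids (alpha-1-acid glycoproteins) carry small lipophilic molecules, haptoglobin (Hp) captures free haemoglobin, Lbp hands bacterial lipopolysaccharide to its receptor complex, and lipocalin 2 (Lcn2) starves bacteria of iron. Wfdc21 encodes a small secreted protein of the whey acidic protein family.

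The serum amyloid A genes lie together on mm10 chromosome 7, from Saa3 (46711998 to 46715700, minus strand) through Saa4 (46727998 to 46732603, minus) and Saa1 (46740497 to 46742980, minus) to Saa2 (46751790 to 46754313, plus). Orm1 (63344560 to 63348163) and Orm2 (63362449 to 63365878) are neighbours on the plus strand of chromosome 4, with Orm3 between them. Lcn2 (32384633 to 32388252, minus) and Lbp (158306493 to 158332852, plus) lie on chromosome 2, Hp (109575128 to 109579172, minus) on chromosome 8 and Wfdc21 (83746940 to 83752642, plus) on chromosome 11. All 10 are protein-coding genes in the GENCODE vM21 annotation.

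Promoter sequences of 6 members were found in RefSeq (GRCm38.p6): Saa1, Saa2, Saa3, Saa4, Orm2 and Lcn2. Each held at least 1 match to the C/EBP-type motif TTNNGCAA, searched on both strands from 250 bases before to 50 after the transcription start, against 10.8% of the 32851 promoters of that length in the table. The match began at position -99 from the start in Saa3, at -182 in Saa1, -183 in Saa2, -120 in Orm2, -216 in Lcn2, and at -245 and -52 in Saa4. The promoters of Saa1 and Saa2 were identical at 95.3% of aligned positions, so they are nearly the same sequence. Of the other motifs searched on both strands, TATAAA was found in Orm2 only (13.6% of all promoters), and the STAT3-type motif TTCNNNGAA (8.30%) and an NF-kB-type motif (1.63%) were in 0 of the 6. In Orm2 the C/EBP-type match reads the same on either strand, and no match overlapped that of another motif. The 250 bases before the start of 4 genes are shown to set Saa3, which is read in white fat, beside Saa1, which hardly is, and beside Orm2 and Lcn2. Capitals mark the C/EBP-type match and, in Orm2, the TATA box. The regions are chr7:46715677-46715926 (minus strand) for Saa3, chr7:46742981-46743230 (minus) for Saa1, chr4:63362199-63362448 (plus) for Orm2 and chr2:32387740-32387989 (minus) for Lcn2.
Saa3: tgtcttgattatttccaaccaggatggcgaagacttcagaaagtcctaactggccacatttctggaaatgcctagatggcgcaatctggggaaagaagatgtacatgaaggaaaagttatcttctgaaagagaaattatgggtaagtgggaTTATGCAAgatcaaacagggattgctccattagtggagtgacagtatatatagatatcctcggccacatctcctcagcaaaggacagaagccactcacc
Saa1: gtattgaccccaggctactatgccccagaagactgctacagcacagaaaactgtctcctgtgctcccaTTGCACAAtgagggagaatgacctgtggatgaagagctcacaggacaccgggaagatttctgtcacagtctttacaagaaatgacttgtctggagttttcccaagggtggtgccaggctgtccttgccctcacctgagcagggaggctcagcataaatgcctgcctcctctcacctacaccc
Orm2: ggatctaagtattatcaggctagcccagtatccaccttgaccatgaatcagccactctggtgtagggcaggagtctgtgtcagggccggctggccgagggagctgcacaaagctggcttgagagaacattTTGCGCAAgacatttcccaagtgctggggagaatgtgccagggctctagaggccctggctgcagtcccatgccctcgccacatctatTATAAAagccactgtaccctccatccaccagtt
Lcn2: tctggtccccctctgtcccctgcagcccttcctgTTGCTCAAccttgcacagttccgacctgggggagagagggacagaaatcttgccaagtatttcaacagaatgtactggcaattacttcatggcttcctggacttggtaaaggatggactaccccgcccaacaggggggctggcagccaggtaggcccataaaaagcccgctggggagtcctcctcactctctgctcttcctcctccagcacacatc

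The values are FPKM (fragments per kilobase of transcript, scaled to the mapped fragments of the library), a unit that corrects for gene length, so levels of different genes can be set side by side. How many reads stand behind a value is not known. The FPKM of a library summed to between 818815 and 1074120. Among genes with a median of 10 FPKM or more, 86 held exact zeros, 228 values in all, so a 0 can be a failed estimate, and a gene at 0 is described only as listed at 0. Defining markers bore out the labels: the brown fat gene Ucp1 averaged 270.3 FPKM in tAT, 4536 in BAT, 0.0819 in eWAT and 0.243 in iWAT, and the mesothelial gene Upk3b reached 15.6 to 20.2 FPKM in eWAT, against at most 0.0487 elsewhere. Transcripts of 15 skeletal muscle genes summed to 18122 to 28644 FPKM in tAT 1, 2 and 4 and to 313 in tAT 3. In BAT 3 and 4 they summed to 3496 and 2868, and they stayed at 69.4 to 810 in the other libraries. Transcripts of 10 lymphocyte genes summed to 259 FPKM in iWAT 3 and to at most 32.9 in any other library.

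By mean summed FPKM, the members were most abundant in epididymal fat and least abundant in thigh and brown fat. Their FPKM summed to 943 ± 113 in tAT, 833 ± 157 in BAT, 5214 ± 1696 in eWAT and 3016 ± 725 in iWAT (SD, n = 4 libraries each). This was 0.0988% of all FPKM in tAT, 0.0985% in BAT, 0.544% in eWAT and 0.332% in iWAT. The epididymal and inguinal sums overlapped, with eWAT 3 at 2954 and iWAT 2 at 4030 FPKM, and the sums were not tested. Haptoglobin made up 66.8 to 70.5% of the sum in tAT, 90.9 to 94.4% in BAT, 67.7 to 76.0% in eWAT and 69.9 to 73.1% in iWAT. Thigh and brown fat thus held a similar total of different make-up: almost all of it was Hp in BAT, while Orm1, Lbp and Wfdc21 added to it in tAT.

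**Figure D1:**
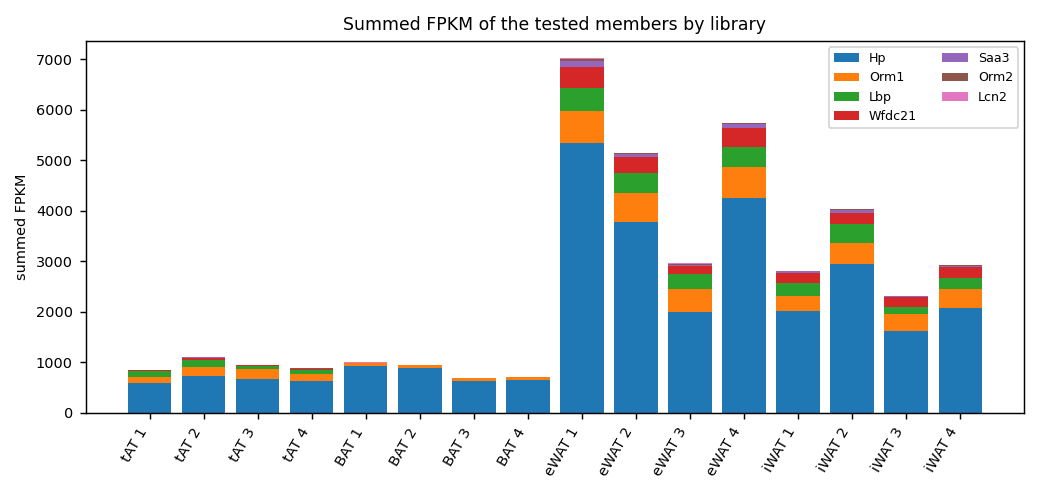
Summed FPKM (vertical axis) of the 7 members that could be tested, stacked by gene, in each of the 16 libraries. Hp is the largest part of every bar, eWAT 1 has the tallest bar and eWAT 3 the shortest of the epididymal bars, and the tAT and BAT bars are all shorter than any white fat bar.

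Of the 10 members, 7 reached 1 FPKM in at least 4 libraries and were tested; Saa1, Saa2 and Saa4 did not. Lcn2 reached this level in 8 libraries, all 4 epididymal ones among them, and Saa3 in 11, none of them brown. Among the 7 tested members the depot means fell in the order eWAT, iWAT, tAT, BAT for 5, an order that 30.3% of all 14991 tested genes shared. For the other 2, Hp and Lcn2, the mean was higher in BAT than in tAT, but the libraries overlapped and the difference did not pass.

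Saa3, the serum amyloid A gene that mice express outside the liver, was the only one of its family with a sizeable level in fat. It stood at 2.99, 5.60, 0.271 and 1.25 FPKM in tAT 1 to 4, and in BAT it stood at 0.105 and 0.106 FPKM in libraries 1 and 2 and was listed at 0 in libraries 3 and 4. It stood at 120, 49.8, 18.5 and 81.5 FPKM in eWAT and at 26.0, 56.9, 8.03 and 19.1 FPKM in iWAT. Every white fat library was above every thigh library, and every thigh library above every brown one (0.271 FPKM in tAT 3 and 0.106 in BAT 2 at the closest, both low), while eWAT and iWAT overlapped. The spread within depots was wide, with an SD of 43.4 FPKM around a mean of 67.4 in eWAT and of 2.34 around 2.53 in tAT. On the log2(FPKM + 1) scale, which limma tested across all genes with Benjamini-Hochberg adjustment, Saa3 was lower in tAT, with a difference of -4.25 from eWAT (SE 0.645, adjusted p = 0.000100) and of -2.97 from iWAT (SE 0.645, adjusted p = 0.00294). All differences below are on this scale.

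The liver genes of the family were near 0. Saa1, Saa2 and Saa4 together had 48 values, 31 of them listed at 0, and their highest value was 0.469 FPKM (Saa1 in eWAT 1). Saa1 and Saa2 encode the serum amyloid A of the hepatic response and Saa4 a form that is made without a stimulus. In BAT all 3 were listed at 0 in all 4 libraries. Saa1 stood at 0.469, 0.0898, 0 and 0.196 FPKM in eWAT and at 0.371, 0, 0 and 0.0788 in iWAT, and Saa2 at 0.463, 0.0886, 0 and 0.291 in eWAT. Saa4 reached 0.120 FPKM in iWAT 4. Of the 50-base windows of the longest protein-coding Saa1 transcript, 13.2% also occur in Saa2, so reads may have been split between these copies and both values are uncertain. The longest Saa3 transcript shared 0 such windows with Saa1, Saa2 or Saa4. In the other direction, 1.61% of the Saa1 windows occur in a Saa3 transcript.

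The orosomucoid pair stood in the same order of depots at very different levels. Orm1 was the second most abundant member and stood at 127, 163, 206 and 151 FPKM in tAT and at 57.2, 47.0, 56.2 and 54.9 in BAT. It stood at 632, 564, 456 and 606 FPKM in eWAT and at 303, 415, 330.1 and 358 in iWAT. No pair of depots overlapped for Orm1, and each of the 6 differences passed, from 0.68 (SE 0.144, adjusted p = 0.00615) for eWAT against iWAT to -3.36 (SE 0.144, adjusted p = 9.79e-12) for BAT against eWAT.

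Orm2 stood at 2.46, 3.72, 4.62 and 3.45 FPKM in tAT and at 0.980, 1.14, 0.696 and 1.10 in BAT. It stood at 25.7, 18.7, 17.1 and 22.2 FPKM in eWAT and at 8.44, 8.59, 8.89 and 8.51 in iWAT, where the 4 libraries lay closest together. No pair of depots overlapped for Orm2 either, and all 6 differences passed. The level of Orm1 was 43.7 to 51.5 times that of Orm2 in tAT, 41.3 to 80.8 times in BAT, 24.6 to 30.1 times in eWAT and 35.9 to 48.4 times in iWAT, so the ratio was lowest in eWAT, in every library. The mRNAs of Orm1 and Orm2 shared 20.4% of their 50-base windows. The neighbouring Orm3 shared 2.20% of the windows of Orm1 and 3.58% of those of Orm2. Orm3 stood at 13.5 to 20.9 FPKM in eWAT and at 2.08 to 4.70 in the other depots. The assignment of reads among these genes is therefore uncertain, and so is the ratio of Orm1 to Orm2.

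Haptoglobin was the most abundant member in every library, and its level did not separate thigh from brown fat. Hp stood at 583, 735, 661 and 618 FPKM in tAT and at 930, 889, 625 and 650.0 in BAT. It stood at 5334, 3778, 2001 and 4255 FPKM in eWAT and at 2017, 2946, 1617 and 2082 in iWAT. The thigh and brown libraries overlapped, as did the epididymal and inguinal ones, but every white fat library was above every thigh or brown library. Hp was lower in tAT, with a difference of -2.48 from eWAT (SE 0.253, adjusted p = 1.24e-06) and of -1.71 from iWAT (SE 0.253, adjusted p = 0.000132). Between tAT and BAT the difference was -0.23 (95% interval -0.77 to 0.30, adjusted p = 0.418). The last of these depends on scaling: the difference of tAT against BAT was -0.78 after median-of-ratios scaling (adjusted p = 0.0184).

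Lbp, which presents lipopolysaccharide to CD14, was read at a low level in brown fat. It stood at 106, 147, 50.8 and 77.0 FPKM in tAT and at 2.40, 1.70, 1.88 and 1.42 in BAT. It stood at 459, 411, 280 and 407 FPKM in eWAT and at 242, 367, 147 and 222 in iWAT. The brown libraries were far below all others, and the thigh and inguinal libraries overlapped at 1 point, with tAT 2 at 147.0 and iWAT 3 at 146.6 FPKM. Lbp was higher in tAT than in BAT by 4.98 (SE 0.301, adjusted p = 3.70e-09), a mean 51.5 times that of BAT. It was lower in tAT, with a difference of -1.38 from iWAT (SE 0.301, adjusted p = 0.00251) and a mean 0.245 times that of eWAT (adjusted p = 3.97e-05).

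Wfdc21 stood at 25.7, 44.4, 25.2 and 25.7 FPKM in tAT and at 1.82, 1.38, 2.49 and 1.65 in BAT. It stood at 426, 313, 172 and 362 FPKM in eWAT and at 210.4, 234, 200.4 and 226 in iWAT. The thigh libraries lay between the brown and the white ones without overlap, and the epididymal range enclosed the inguinal one. The mean in tAT was 16.5 times that of BAT, and 0.139 times that of iWAT. The differences were 3.43 for tAT against BAT (SE 0.236, adjusted p = 8.79e-09) and -2.85 for tAT against iWAT (SE 0.236, adjusted p = 1.60e-06).

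Lcn2, the siderophore-binding lipocalin of neutrophils, macrophages and adipocytes, was high in epididymal fat and low in the other depots. It stood at 0.620, 0.867, 0.673 and 0.623 FPKM in tAT and at 1.02, 1.00, 1.01 and 0.670 in BAT. It stood at 17.2, 12.9, 8.86 and 6.09 FPKM in eWAT and at 0.417, 1.93, 0.691 and 0.881 in iWAT. The lowest epididymal library was above the highest of the other 12, and those 12 overlapped. Lcn2 was higher in eWAT than in iWAT by 2.59 (SE 0.246, adjusted p = 4.45e-06). The difference from eWAT was -2.77 in tAT (SE 0.246, adjusted p = 3.52e-07) and -2.58 in BAT (SE 0.246, adjusted p = 1.02e-07). The intervals of the other 3 differences were -0.71 to 0.34 for tAT against BAT, -0.69 to 0.35 for tAT against iWAT and -0.51 to 0.53 for BAT against iWAT. After quantile normalization Lcn2 was lower in tAT than in BAT (-0.70, adjusted p = 0.0199) and higher in BAT than in iWAT (0.58, adjusted p = 0.0417).

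**Figure D2:**
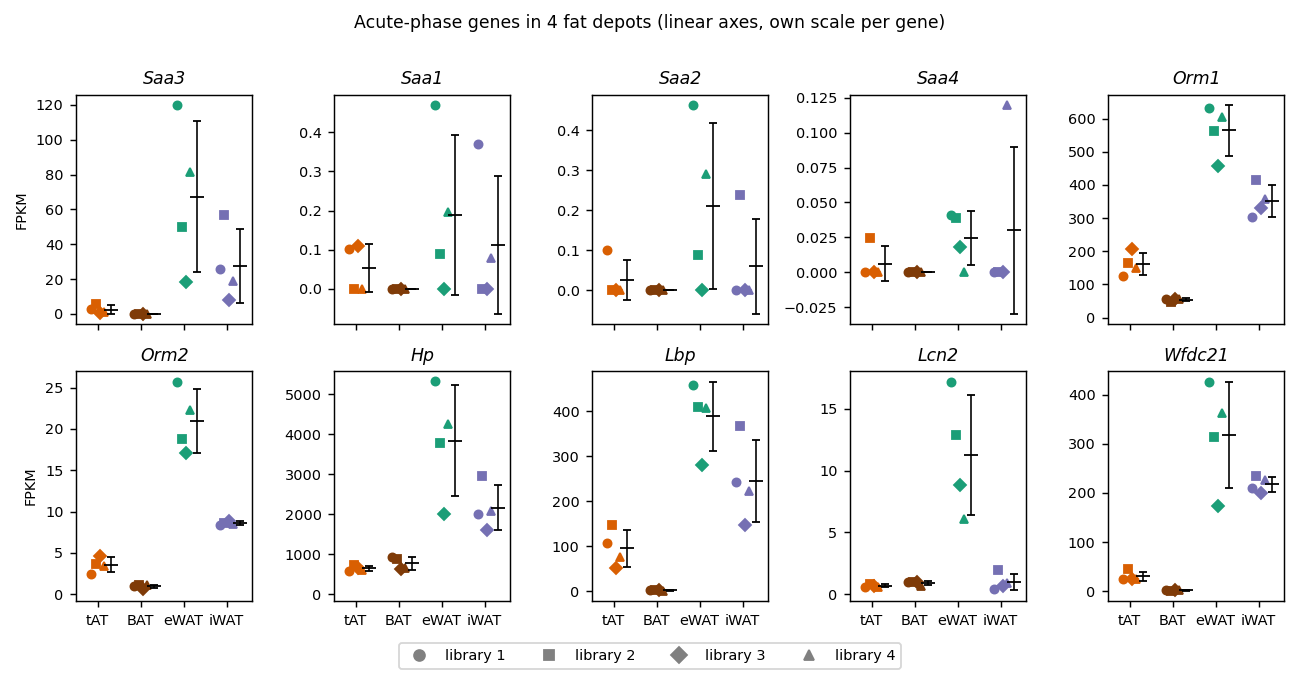
FPKM (vertical axis, linear, own scale per gene) of the 10 members in tAT, BAT, eWAT and iWAT; each symbol is 1 library and the black bar is the mean with the SD of 4 libraries, drawn below 0 where the SD exceeds the mean. Lcn2 is raised only in eWAT, Saa1, Saa2 and Saa4 stay below 0.5 FPKM, and Lbp and Wfdc21 lie near the axis in BAT.

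In tAT against iWAT, 6 of the 7 tested members were lower and 0 higher, where limma called 29.4% of all tested genes lower and 10.5% higher. The exception was Lcn2. The median difference was -1.38 over the 7 members and -0.11 over all tested genes, and the libraries did not overlap for 5 members, all lower, against 25.9% of all genes lower and 7.75% higher without overlap. In tAT against eWAT all 7 tested members were lower, without overlap, where 36.0% of all genes were called lower and 21.6% higher, and 31.2% lay lower and 14.1% higher without overlap (median -2.48 over the 7 and -0.08 over all genes). In tAT against BAT, 4 were higher (Orm1, Orm2, Lbp and Wfdc21) and 0 lower, where 58.6% of all genes were higher and 11.2% lower, so that share is near the background. With Saa3, 5 lay higher without overlap, against 51.9% of all genes, and 0 lower, against 9.25%. The Saa3 difference of 1.49 did not pass (SE 0.645, adjusted p = 0.0543), and it did with a pseudocount of 0.1 (3.59, adjusted p = 0.00165).

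In BAT against eWAT all 7 tested members were lower, against 59.0% of all genes lower and 15.2% higher, and all 7 without overlap, against 56.0% lower and 13.6% higher. In BAT against iWAT 6 were lower, without overlap, against 61.5% of all genes called lower and 12.7% higher, and 59.5% lower and 12.2% higher without overlap. The exception was Lcn2, with a mean of 0.927 FPKM in BAT and 0.980 in iWAT. Lbp differed by -7.08 (SE 0.301) from eWAT and by -6.36 (SE 0.301) from iWAT, Wfdc21 by -6.76 and -6.28 (SE 0.236 each), where the medians of all genes were -0.52 and -0.54. Hp differed by -2.25 and -1.47 (SE 0.253 each) and had the smallest difference from iWAT among those that passed.

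In eWAT against iWAT, 3 of the 7 were higher (Orm1, Orm2 and Lcn2) and 0 lower, where 8.48% of all genes were higher and 5.52% lower. The same 3 lay higher without overlap, against 11.0% of all genes higher and 8.08% lower. Orm2 differed by 1.18 (SE 0.142, adjusted p = 5.85e-05). Saa3, Hp, Lbp and Wfdc21 had higher means in eWAT too, but their libraries overlapped with iWAT and their differences did not pass, with 1.28 for Saa3 (95% interval -0.11 to 2.67, adjusted p = 0.200), 0.78 for Hp (0.24 to 1.31, adjusted p = 0.0533), 0.72 for Lbp (0.08 to 1.36, adjusted p = 0.124) and 0.47 for Wfdc21 (-0.03 to 0.98, adjusted p = 0.192). Without eWAT 3, the epididymal library with the lowest value of 6 of the 7, the count was 5, with Hp (1.06, adjusted p = 0.00268) and Wfdc21 (0.74, adjusted p = 0.0121) added. Without iWAT 2, the inguinal library with the highest value of 6 of the 7, it was also 5, with Hp (0.93, adjusted p = 0.0282) and Lbp (0.94, adjusted p = 0.0481) added. The 6 comparisons share libraries and are not independent of each other.

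**Figure D3:**
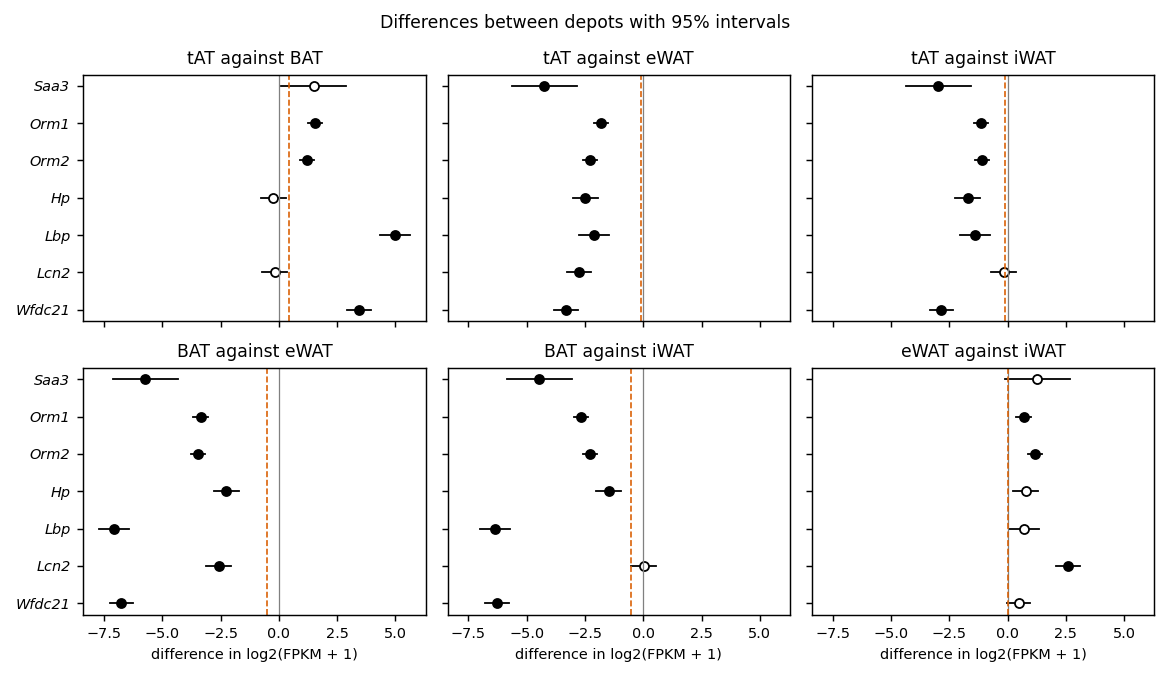
Difference in log2(FPKM + 1) between depots (horizontal axis) for the 7 tested members in the 6 comparisons, with 95% intervals; filled points passed at an adjusted p under 0.05 and the dashed orange line is the median of all tested genes. In tAT against eWAT all 7 points lie left of 0, and in eWAT against iWAT Lcn2 lies farthest to the right, at 2.59.

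FPKM is a share of the library, so it moves with what the other genes take up. The median of all genes was 0.44 in tAT against BAT, -0.52 in BAT against eWAT and -0.54 in BAT against iWAT. After median-of-ratios scaling these medians were 0.02, -0.01 and -0.01, and all genes split into 4111 higher and 3953 lower in tAT against BAT, where the deposited values gave 8783 and 1683. The splits after scaling were 5065 and 5316 in BAT against eWAT (2275 and 8844 as deposited), 4588 and 5004 in BAT against iWAT (1911 and 9225) and 2243 and 3171 in tAT against iWAT (1575 and 4400). Quantile normalization gave 3498 higher and 4210 lower in tAT against BAT, 4241 and 4376 in tAT against eWAT (3242 and 5403 as deposited), 2440 and 3275 in tAT against iWAT, 5571 and 4904 in BAT against eWAT and 4958 and 4646 in BAT against iWAT. The 4 members that rose in tAT against BAT passed after median-of-ratios scaling too, with Orm1 at 1.01, Orm2 at 0.88, Lbp at 4.59 and Wfdc21 at 3.04. Those lower in tAT or BAT than in white fat passed as well, and Hp in BAT against iWAT was at -0.82 (adjusted p = 0.0116).

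Set against adiponectin, whose gene Adipoq is read in adipocytes and stood at 2143 FPKM in tAT, 666 in BAT, 3776 in eWAT and 3572 in iWAT, the order of depots differed between members. The FPKM of Hp divided by that of Adipoq was 0.304 ± 0.0374 in tAT, 1.17 ± 0.259 in BAT, 1.01 ± 0.361 in eWAT and 0.603 ± 0.133 in iWAT (SD, n = 4 each). Every thigh library, at 0.273 to 0.357, was below every library of the other depots, the lowest of which was iWAT 3 at 0.498. For Orm1 the ratio was 0.0751 ± 0.0122 in tAT and 0.0810 ± 0.00815 in BAT, which overlapped, 0.149 ± 0.0176 in eWAT and 0.0984 ± 0.0111 in iWAT. For Lbp it was 0.0452 ± 0.0210 in tAT, 0.00278 ± 0.000647 in BAT, 0.103 ± 0.0189 in eWAT and 0.0678 ± 0.0230 in iWAT. For Lcn2 it was 0.000326 ± 6.39e-05 in tAT, 0.00139 ± 0.000237 in BAT, 0.00300 ± 0.00133 in eWAT and 0.000271 ± 0.000174 in iWAT. Here BAT, at up to 0.00158, overlapped eWAT, at 0.00152 or more. When all genes were scaled to a list of 12 adipocyte markers in place of the library total, Hp in tAT against BAT was at -1.53 (adjusted p = 3.35e-05) and in BAT against iWAT at 0.30 (adjusted p = 0.265), while in BAT against iWAT Lbp was at -4.92 and Wfdc21 at -4.84. Of these 12 markers, 8 were lower in tAT than in iWAT, against 29.4% of all genes, and 9 lower in BAT than in iWAT, against 61.5%. The markers are thus not level across the depots as deposited, so that scaling is a description of levels per adipocyte transcript. It split all genes into 1472 higher and 9578 lower in tAT against BAT, 7050 and 2326 in tAT against eWAT, 6190 and 970 in tAT against iWAT, 10681 and 2076 in BAT against eWAT and 10819 and 1812 in BAT against iWAT.

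Macrophage markers shared the depot order of most tested members, an order that 30.3% of all tested genes had. The summed neutrophil, adipocyte and liver markers stood in this order too. The neutrophil and adipocyte sums overlapped between eWAT and iWAT. Not all other cell types had this order. In eWAT against iWAT, 2 of the 10 fibroblast and preadipocyte markers were lower and 0 higher, against 5.52% and 8.48% of all genes. In tAT against iWAT 9 were lower and 1 higher, against 29.4% and 10.5%. In bulk tissue, fewer cells of a type and less RNA per cell cannot be told apart. The 12 macrophage markers summed to 246 to 447 FPKM in tAT, 38.7 to 64.7 in BAT, 1480 to 2990 in eWAT and 797 to 1272 in iWAT. All 12 were lower in tAT than in iWAT, against 29.4% of all genes. Scaled to the adipocyte list, 7 of the 12 were lower, against 970 of the 14991 genes. In eWAT against iWAT 10 of the 12 were higher and 0 lower, against 8.48% and 5.52%. In eWAT the macrophage sums were 2990, 1872, 1480 and 2908 FPKM in libraries 1 to 4, which is the order of Saa3. Orm1, Orm2, Hp and Wfdc21 had this order too, and Lbp and Lcn2 did not. For the macrophage sum and for most members, Saa3 among them, iWAT 2 and tAT 2 were the highest of their depots. The part of macrophages in the depot differences was not tested.

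Markers of mesothelial cells, which cover visceral fat, were high in eWAT: the 10 summed to 0.775 to 1.91 FPKM in tAT, 0.504 to 0.749 in BAT, 67.0 to 104 in eWAT and 1.28 to 1.43 in iWAT. Lcn2 was the member with this pattern of depots. Within eWAT the mesothelial sum was 87.8, 72.9, 104 and 67.0 FPKM in libraries 1 to 4, where Lcn2 was 17.2, 12.9, 8.86 and 6.09. Neutrophils are also known for Lcn2. Their 12 markers summed to 5.27 to 7.75 FPKM in tAT, 1.95 to 4.11 in BAT, 25.5 to 65.4 in eWAT and 15.1 to 32.8 in iWAT. The calcium-binding protein gene S100a8, which macrophages also express, gave 1.46 to 3.15 FPKM of this in tAT, 0.619 to 2.21 in BAT, 18.1 to 58.4 in eWAT and 10.3 to 27.5 in iWAT, and Ly6g was listed at 0 in all 16 libraries. Of the 12, 3 were tested, and 2 were higher in eWAT than in iWAT with 0 lower, against 8.48% and 5.52% of all genes. The 2 were S100a8, by 1.36 (adjusted p = 0.0217), and Csf3r, a receptor of granulocyte growth, by 0.56 (adjusted p = 0.0362). Csf3r stood at 1.34 to 2.65 FPKM in eWAT and 0.811 to 1.34 in iWAT. Scaled to genes outside the muscle list or to the adipocyte list, 1 of the 3 was higher, against 944 and 828 of the 14991 genes. Among the granule genes, Ltf averaged 0.967 FPKM in eWAT and 0.369 in iWAT, Elane 0.906 and 0.883, and Ngp, Camp, Mpo and Mmp8 at most 0.329 in any depot. The part of these cells in the Lcn2 difference was not tested.

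Liver transcripts were also looked for, since the members are best known from hepatocytes. Of 10 liver genes, Trf (transferrin) gave nearly all of the summed FPKM and is read in fat itself. Apob averaged at most 0.0485 FPKM and Ttr at most 0.219 in any depot, and Alb was at 1.65 to 3.41 FPKM in tAT, 0.0366 to 0.0429 in BAT, 4.51 to 9.52 in eWAT and 8.37 to 21.8 in iWAT. Muscle transcripts were abundant in tAT 1, 2 and 4. In tAT 3, where they were few, Hp was at 661, Wfdc21 at 25.2, Orm1 at 206, Orm2 at 4.62, Lbp at 50.8, Lcn2 at 0.673 and Saa3 at 0.271 FPKM. Hp and Lcn2 lay within the range of the other thigh libraries, Wfdc21 just below it, Orm1 and Orm2 above it and Lbp and Saa3 below it, with Saa3 at 1.25 to 5.60 FPKM in the other 3. Without tAT 1, 2 and 4 and BAT 3 and 4, which leaves 1 thigh library that is assumed to vary like the others, all calls of members in tAT and BAT against white fat held, and Saa3 in tAT against BAT was at 0.20 (adjusted p = 0.915).

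**Figure D4:**
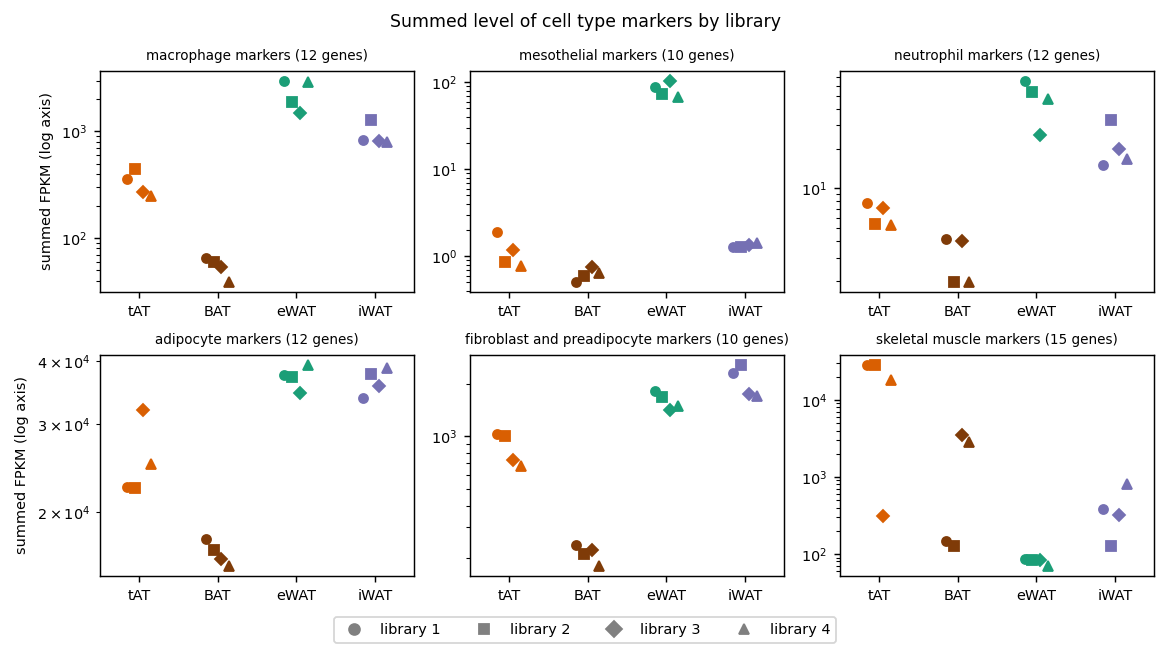
Summed FPKM (vertical axis, log scale) of 6 marker lists in each library of tAT, BAT, eWAT and iWAT; each symbol is 1 library. Macrophage markers run from 38.7 in BAT to 2990 in eWAT, mesothelial markers are above 60 in eWAT only, and muscle markers split the thigh libraries, with tAT 3 at 313.

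The cytokines that start the response were low, while receptors and factors included abundant genes. The receptor gene Tnfrsf1a averaged 79.3 FPKM in tAT, 52.6 in BAT, 138 in eWAT and 109.9 in iWAT, and the factor gene Cebpa 391 in tAT, 224 in BAT, 347 in eWAT and 404 in iWAT. The cytokines Il6, Il1b, Tnf and Osm averaged at most 0.570 FPKM in each depot and were not tested. Of the 6 cytokine receptor genes tested, 2 were lower in tAT than in iWAT and 0 higher, against 29.4% and 10.5% of all genes. The 2 were Il1r1, the interleukin-1 receptor, at -0.64, and Tnfrsf1a, a tumour necrosis factor receptor, at -0.47. All 6 were higher in tAT than in BAT, against 58.6% of all genes. After median-of-ratios scaling 4 were higher and 0 lower, against 4111 and 3953 of the 14991 genes. Scaled to the adipocyte list, 1 was higher and 1 lower, against 1472 and 9578. On that scaling 0 were called in tAT against iWAT, where 6190 of all genes were higher and 970 lower. In eWAT against iWAT limma called 0, and 2 had an unadjusted p under 0.05, Il1r1 (-0.29) and Tnfrsf1a (0.33).

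Among 10 factors, 7 were higher and 1 lower in tAT than in BAT, near the background of 58.6% and 11.2% of all genes. After median-of-ratios scaling the counts were 4 and 1, against 4111 and 3953 of the 14991 genes. Scaled to the adipocyte list they were 0 and 6, against 1472 and 9578, so these too are near the background. The C/EBP genes moved in different directions. Cebpb, induced in the acute phase, was lower in tAT than in BAT, with a difference of -1.43 (SE 0.175, adjusted p = 3.55e-06), and higher in tAT than in iWAT by 0.47 (SE 0.175, adjusted p = 0.0431), a call lost when scaled to genes outside the muscle list (0.43, adjusted p = 0.0623). It stood at 41.7, 57.8, 53.5 and 70.6 FPKM in tAT and 157, 167, 118 and 162 in BAT. Cebpd, its partner in that response, was higher in tAT than in BAT by 1.88 (SE 0.356, adjusted p = 0.000307), and its difference from iWAT was -1.02 in tAT (SE 0.356, adjusted p = 0.0347), which no longer passed after median-of-ratios scaling (-0.91, adjusted p = 0.0646) or quantile normalization (-0.93, adjusted p = 0.0602). Scaled to the adipocyte list, neither Cebpd call held (0.83 and -0.56, adjusted p = 0.0518 and 0.214). It stood at 9.50, 27.5, 7.49 and 13.9 FPKM in tAT, 2.62, 2.54, 2.50 and 3.55 in BAT and 19.7, 39.2, 18.3 and 38.9 in iWAT. Cebpd was highest in tAT 2, the thigh library with the highest Saa3, Hp, Lbp, Lcn2 and Wfdc21. Cebpa, the C/EBP gene of mature adipocytes, was lower in BAT than in iWAT, at -0.84, but at -0.19 after median-of-ratios scaling (adjusted p = 0.151) and higher when scaled to the adipocyte list, at 0.92 (adjusted p = 2.22e-07). It did not pass in tAT or eWAT against iWAT. After quantile normalization it was lower in eWAT than in iWAT (-0.37, adjusted p = 0.0470), and scaled to the adipocyte list it was higher in tAT than in iWAT (0.43, adjusted p = 0.00294). Nfkb2, an NF-kB subunit gene, was lower in tAT than in iWAT, at -0.54 (adjusted p = 0.00651), and higher in eWAT than in iWAT by 0.47 (adjusted p = 0.0360). Scaled to the adipocyte list, neither call held (-0.11 and 0.44, adjusted p = 0.563 and 0.0956), and the second was lost when scaled to genes outside the muscle list (0.42, adjusted p = 0.0770).

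**Figure D5:**
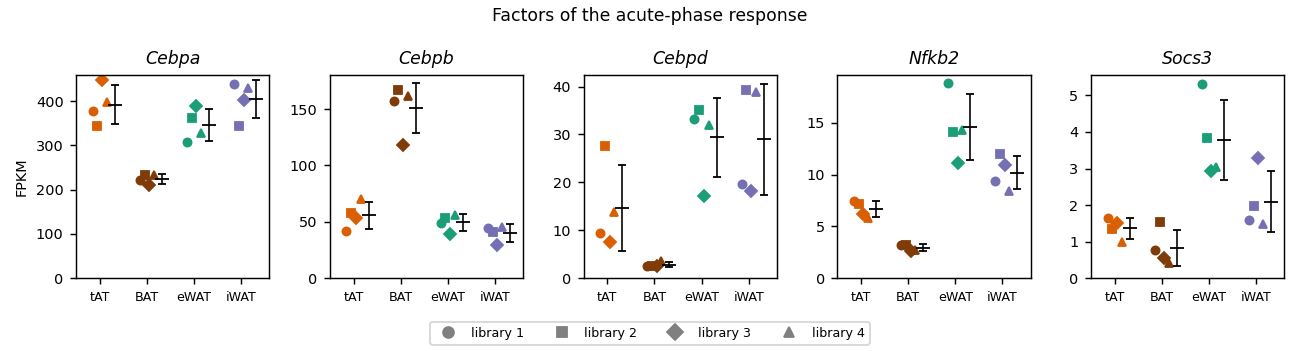
FPKM (vertical axis, linear from 0) of 5 factors of the acute-phase response in tAT, BAT, eWAT and iWAT; each symbol is 1 library and the bar is the mean with SD of 4 libraries. Cebpb is highest in BAT and Cebpd lowest there, with tAT 2 at 27.5 FPKM the highest thigh library for Cebpd.

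Of 20 other acute-phase protein genes, 11 were tested, and the fibrinogen genes Fga, Fgb and Fgg, Crp and Apcs were near or at 0 in each depot. In tAT against iWAT 7 were lower and 0 higher (median -0.77), against 29.4% and 10.5% of all genes. After median-of-ratios scaling the counts were 5 and 0, against 3171 and 2243 of the 14991 genes. Scaled to the adipocyte list they were 4 and 1, against 970 and 6190. In tAT against eWAT 8 were lower and 0 higher (median -1.58), against 36.0% and 21.6%. In eWAT against iWAT 6 were higher and 0 lower (median 0.70), against 8.48% and 5.52%. Serpina3n, a protease inhibitor, stood at 64.2, 97.0, 49.9 and 57.8 FPKM in tAT, 1.49, 1.65, 1.45 and 0.927 in BAT, 400, 359, 238 and 325 in eWAT and 238, 316, 192 and 234 in iWAT, which is the pattern of Lbp and Wfdc21. Cfb, complement factor B, was higher in tAT than in BAT by 5.04 (SE 0.197, adjusted p = 1.11e-11). Agt, angiotensinogen, was higher in eWAT than in iWAT, at 116, 129, 117 and 73.5 FPKM in eWAT and 16.2, 5.27, 16.4 and 16.4 in iWAT (adjusted p = 5.14e-06), and Il1rn, the interleukin-1 receptor antagonist, by 1.68 (SE 0.356, adjusted p = 0.00682). C3, the central complement protein, stood at 137 to 157 FPKM in tAT and 140.5 to 164 in BAT. Its difference between them was 0.03 as deposited and, as for Hp, lower in tAT after median-of-ratios scaling (-0.51, adjusted p = 0.0145).

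Among 13 binding partners and receptors, 10 were tested. All 10 were higher in tAT than in BAT, against 58.6% of all genes. They were also lower in BAT than in iWAT, against 61.5%. After median-of-ratios scaling 8 were higher in tAT than in BAT, against 4111 of the 14991 genes, and 9 lower in BAT than in iWAT, against 5004. Scaled to the adipocyte list, 3 were higher and 2 lower in tAT than in BAT, against 1472 and 9578 of all genes. On that scaling 4 were higher and 4 lower in BAT than in iWAT, against 10819 and 1812. Hmox1, which breaks down the haem that haptoglobin helps to clear, was lower in tAT than in iWAT, at -1.02 (adjusted p = 0.000486), as was Cd163, the macrophage receptor of the haptoglobin complex, at -0.97 (adjusted p = 0.00491). Scaled to the adipocyte list, Cd163 did not pass (-0.53). Cd14 and Ly96, of the lipopolysaccharide receptor, did not pass in tAT against iWAT (-0.38 and -0.33, adjusted p = 0.0838 and 0.103), nor did Tlr4 (-0.05) or Slc22a17, a receptor of lipocalin 2 (-0.17, adjusted p = 0.305). Tlr2, a receptor for bacterial lipoproteins and serum amyloid A, was higher in eWAT than in iWAT by 0.71 (adjusted p = 0.00342).

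The genes whose log2(FPKM + 1) followed each member most closely over the 16 libraries were named by Pearson correlation, as a description in which the points share depots. They were Sfrp5 (0.997), Mxra8 (0.996) and Nek6 (0.996) for Lbp, S100a11 (0.995), Ebpl (0.994) and Ywhaq (0.993) for Orm1, and Pold4 (0.995), Plscr1 (0.987) and Ftl2 (0.987) for Orm2. For Saa3 they were Ear10 (0.991), Duoxa1 (0.986) and Dynlt1a (0.985), for Wfdc21 Copg2 (0.995), Ube2r2 (0.994) and Clec3b (0.994), and for Hp Tmem97 (0.977), Serf2 (0.977) and Ctsf (0.977). For Lcn2 they included Krt7 (0.974) and Rpp25 (0.971), both averaging above 1 FPKM in eWAT only. Sfrp5, a secreted Wnt antagonist, averaged 84.0 FPKM in tAT, 0.956 in BAT, 459 in eWAT and 278 in iWAT, against 95.3, 1.85, 389 and 244 FPKM of Lbp in tAT, BAT, eWAT and iWAT.

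Within depots, 1 library was often the highest for several members. Of the 7 tested members, all 7 were highest in eWAT 1 and 6 were lowest in eWAT 3, the exception being Lcn2, lowest in eWAT 4. In iWAT 6 were highest in iWAT 2, with Orm2 the exception, and in tAT 5 were highest in tAT 2, with Orm1 and Orm2 highest in tAT 3. The muscle sum was 28644 FPKM in tAT 2 and 313 in tAT 3. In BAT 4 were highest in BAT 1. With 4 libraries a depot, these are descriptions of single libraries.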

How the data were processed

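The authors deposited FPKM, 1 column per library, for 46386 entries. TopHat, TopHat2 2.0.9, Cufflinks 2.1.1 and the build mm10 are named per the submitters' processing notes. Settings and annotation: not given in the sources used here. The depth is unknown. No counts were used, so no counting interval was computed. FPKM was taken as deposited, with the highest entry per symbol, as log2(FPKM + 1), a scale that understates changes of low genes. Genes that reached 1 FPKM in 4 or more libraries, 14991 in all, were fitted with limma 3.58.1 (R 4.3.3; trend and robust) in 1 fit of 16 libraries with a mean per depot, and p-values were adjusted by Benjamini-Hochberg over all of them, with a threshold of 0.05. The test was tried on simulated data. No 2 libraries were identical. Figures were drawn with matplotlib 3.10.9.

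Members, gene lists and motifs were chosen with earlier results of these data known. The rule for named genes was all members, the list genes with the largest passing differences in tAT and eWAT against iWAT, and the 3 closest patterns per member. Of the list genes it gave, only some are described. A gene among the closest patterns is not reported here. Adipoq, C3, Cfb, Serpina3n, Socs3 in the plot, and other list genes named beside them were added after their values were seen. Whether replicate numbers pair the libraries is not stated, and the main fit did not pair them. Alternatives were another pseudocount (0.1), the filter dropped or set to 5 FPKM, 4 scalings, fits of 2 depots, the replicate block, another limma setting, summed entries, and libraries left out.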

Additional observations from a re-analysis of the deposited data

Results flagged for a closer look

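A library far from the other 3 of its depot was found in 6 of 40 combinations of member and depot (Dixon's criterion for 4 values, which chance meets in about 1 in 20 groups). Wfdc21 stood at 44.4 FPKM in tAT 2 and at 25.2 to 25.7 in the other thigh libraries. Lcn2 stood at 0.670 FPKM in BAT 4 and at 1.00 to 1.02 in the other brown libraries. The other 4 are genes listed at 0 in the remaining libraries of the depot: Saa2 at 0.0996 FPKM in tAT 1 and 0.239 in iWAT 2, and Saa4 at 0.0246 in tAT 2 and 0.120 in iWAT 4. A single value above 0 always meets the criterion, so the rate of 1 in 20 does not apply to these 4. Saa1, Saa2 and Saa4 in BAT, listed at 0 throughout, could not be flagged.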

How the results depend on the processing

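Over 28 alternatives each, the differences of the 7 members in tAT against eWAT kept their direction and their call, as did those of the 6 that were lower in tAT than in iWAT. The count of members lower in tAT than in BAT, 0 as reported, was 1 after median-of-ratios scaling (Hp), 1 after quantile normalization (Lcn2, -0.70) and 2 when scaled to the adipocyte list (Hp and Lcn2). The count higher in BAT than in iWAT, 0 as reported, was 1 after quantile normalization and 1 when scaled to the adipocyte list, Lcn2 in each case. The count higher in eWAT than in iWAT, 3 as reported, was 4 after quantile normalization (Hp added, 0.85, adjusted p = 0.0316), 5 with the replicate block (Hp and Lbp added) and 3 to 5 with single libraries left out. Whether a replicate number marks the same animal across depots is not stated. Across genes, the deviations of same-numbered libraries correlated by -0.274 to 0.230 and those of differently numbered ones by -0.280 to 0.325. Muscle transcripts also vary within depots, so these values cannot decide it. The replicate block changed the call of Saa3 in tAT against BAT as well (adjusted p = 0.0122). Signs turned only for small or uncalled differences and for Hp: Hp in tAT against BAT was 0.0125 after quantile normalization, Hp in BAT against iWAT was 0.30 when scaled to the adipocyte list, Lcn2 in tAT against iWAT was 0.0309 when scaled to that list and -0.31 to 0.0355 with single libraries left out (0.0355 without iWAT 2), and Lcn2 in BAT against iWAT was -0.13 to 0.22 with single libraries left out, below 0 without BAT 1, 2 or 3 or iWAT 1 or 3. Scaled to the adipocyte list, Orm1 in tAT against BAT (0.27, adjusted p = 0.0849) and Hp in BAT against eWAT (-0.47, adjusted p = 0.0832) no longer passed. The cause was not tested. Saa3 in tAT against BAT passed in 9 of 28 alternatives, with differences from 0.20 to 3.59, among them those without tAT 3, eWAT 1, eWAT 3, iWAT 2 or iWAT 3 (adjusted p = 0.0211 to 0.0466). Saa1, Saa2 and Saa4 were too low to test. Lcn2 outside eWAT and Saa3 and Orm2 in BAT also averaged under 1 FPKM, so these levels are less certain.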
